A study of Rattus norvegicus with 10 samples.

Results

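The metabotropic glutamate receptors were examined in hippocampal messenger RNA of rats with epilepsy after stimulation of the amygdala. The 6 receptor genes Grm2, Grm3, Grm4, Grm5, Grm7 and Grm8 were taken as the rows of the deposited count matrix whose RefSeq transcript identifier carries one of these symbols. They are 6 of the 16610 genes that received a symbol, each held by 1 row of the 32041 rows of the matrix, and all 6 had enough counts to be tested. The genes were taken by name, with earlier results of these data known.

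The animals were male Sprague-Dawley rats, which are outbred. They had a wire electrode placed in the left lateral nucleus of the amygdala under isoflurane anaesthesia. The 5 stimulated rats (rats 6 to 10) then received trains of pulses of 400 µA at 60 Hz for 30 min, which evoked status epilepticus, a prolonged seizure that was ended with diazepam. The 5 sham operated rats (rats 1 to 5) were matched in time and carried the electrodes but received no current. The tissue was a piece of the left hippocampus with CA3 and dentate gyrus, taken 3 months after status epilepticus, 1 library per rat, so the effects of the initial seizure, of diazepam and of later seizures cannot be told apart. All 5 rats labelled as stimulated were used, although the methods of the study list fewer without naming them.

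Metabotropic glutamate receptors are G protein-coupled receptors that adjust transmission over seconds, in contrast to the ion channel receptors that carry the fast current. Group I receptors (here Grm5) couple to Gq and phospholipase C and sit mainly beside the postsynaptic density. Group II (Grm2 and Grm3) and group III (Grm4, Grm7 and Grm8) couple to Gi/o, lower cyclic AMP and are known chiefly as presynaptic brakes on glutamate release. In the hippocampus Grm2 is known from the mossy fibres of dentate granule cells, Grm3 and Grm5 are found in glia as well as in neurons, and Grm7 lies in the active zone of nerve terminals.

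Libraries held between 13552309 (sham rat 2) and 24086059 (sham rat 4) aligned counts. The share of reads that were not aligned was 32.82 to 37.09% in sham and 32.01 to 45.14% in stimulated rats. The receptor genes other than Grm8 were counted 290 to 1685 times per library, and Grm8 0 to 48 times. Levels are given as CPM, in which each library is brought to the same size after correction by the trimmed mean method. These values are not divided by transcript length, so levels of different receptor genes are not compared here. Markers of the labelled tissue were present in sham rats, with 152 ± 8.57 CPM for Grik4 of CA3 and 155 ± 10.2 CPM for C1ql2 of dentate granule cells (SD, n = 5), and Fibcd1 of CA1 was counted as well, at 111 ± 30.2 CPM.

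It was asked which receptor genes differ between stimulated and sham rats. Grm7 was higher in each of the 5 stimulated rats than in any sham rat, by 1.29-fold. The other 5 receptor genes had overlapping values in the groups. Grm2 was far below the sham range in stimulated rats 7 and 9 and within or above it in the remaining 3. No receptor gene passed the adjusted threshold: edgeR's quasi-likelihood test, adjusted over all features, called 0 of 6 at 0.05, and 0 (0%) of the 22447 features tested. At an unadjusted threshold of 0.05 it called 1 of 6 receptor genes and 9.86% of all features. The groups did not overlap for 1 of 6 receptor genes and for 1.29% of all features. Of the 6 receptor genes, 2 were higher and 4 lower in stimulated rats, with a median log2 fold change of -0.08, where the median of all features was 0.0118. Likelihood ratio, exact and DESeq2 tests called 119, 90 and 33 of all features at the adjusted threshold, and none of the receptor genes.

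**Figure D1:**
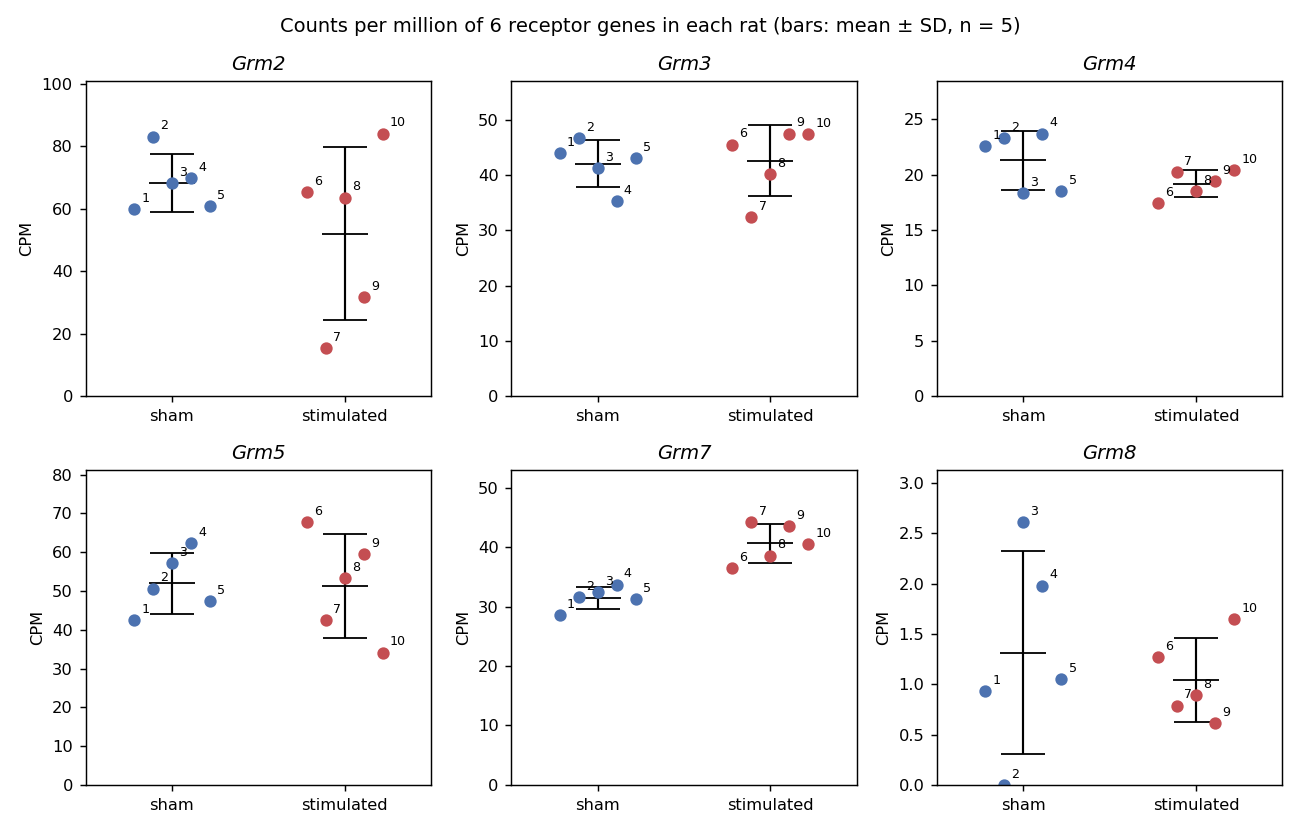
CPM (vertical axis, from 0, with its own scale for each gene) of the 6 receptor genes in each rat, with the rat number beside each point and bars for mean ± SD of the 5 rats of a group. Grm7 separates the groups, whereas Grm2 in the stimulated group runs from 15.5 CPM in rat 7 to 84 CPM in rat 10.

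Grm7 (NM_031040) encodes a presynaptic group III receptor with low affinity for glutamate, which is engaged when release is strong. Sham rats 1 to 5 carried 28.6, 31.6, 32.4, 33.7 and 31.3 CPM, and stimulated rats 6 to 10 carried 36.5, 44.2, 38.6, 43.5 and 40.5 CPM. The lowest stimulated rat, rat 6, was thus above the highest sham rat, rat 4, and the highest were rats 7 and 9. Sham rats averaged 31.5 ± 1.86 CPM and stimulated rats 40.7 ± 3.24 CPM (SD, n = 5 each). This is a log2 fold change of 0.37 (SE 0.0908, 95% interval 0.17 to 0.56), with an unadjusted p-value of 0.00127 and an adjusted p-value of 0.376 in edgeR's quasi-likelihood test, the 60th lowest unadjusted value of the 22447 features. An exact permutation test of log2 CPM over all 252 assignments of the rats gave p = 0.00794 (two-sided), the lowest that 5 against 5 rats allow. The coefficient of variation between rats was 5.9% in sham and 7.98% in stimulated rats, where counting error alone gives 4.04% and 3.54%.

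Other measures also varied between these rats, and for most of them the groups overlapped. The immediate early gene score, the mean log2 CPM of 10 genes transcribed within minutes of neuronal activity, was 2.79 to 3.30 in sham rats and 3.37, 5.05, 2.81, 5.35 and 5.30 in stimulated rats 6 to 10. Its Pearson correlation with Grm7 over the 10 rats was 0.81. The endothelial score was 4.07 to 4.16 in sham rats and 4.33, 4.17, 4.46, 4.26 and 5.13 in stimulated rats 6 to 10. Rat 7 was thus barely above the highest sham rat. The neuronal score was 8.88 to 9.01 in sham and 8.76 to 8.99 in stimulated rats. The share of unaligned reads was 41.4 to 45.14% in rats 8, 9 and 10 but 35.55% and 32.01% in rats 6 and 7. The part of these measures in the Grm7 difference was not tested. In a piece of bulk tissue, a change in the number of cells of a type and a change in RNA per cell cannot be told apart.

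The difference in Grm7 varied little with the processing. The log2 fold change was 0.32 to 0.39 in the 10 fits that each left out 1 rat and 0.34 to 0.39 with other tests, scalings and filters. The unadjusted p-value was under 0.05 in all 21 of these alternatives and lay between 0.000145 and 0.00565. The adjusted p-value lay between 0.0669 (DESeq2) and 0.661 (without sham rat 4), and was under 0.05 in 0 of 21.

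**Figure D2:**
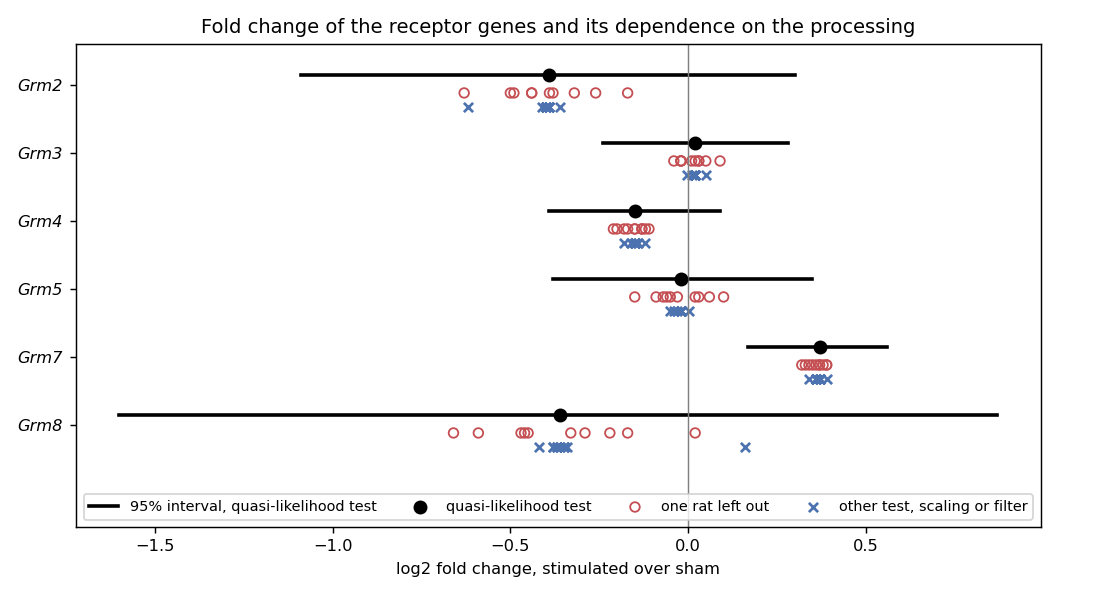
Log2 fold change of stimulated over sham rats (horizontal axis) for each receptor gene: black points with bars are the quasi-likelihood estimate and its 95% interval, red circles are fits without 1 rat, and blue crosses are other tests, scalings or filters. The values of Grm7 lie together between 0.32 and 0.39, those of Grm2 spread from -0.63 to -0.17, and those of Grm3, Grm5 and Grm8 fall on both sides of 0.

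Because library scaling enters every CPM, Grm7 was also set against the other receptor genes within the same library, as ratios of raw counts, with Grm8 left out for its low counts. Grm7 over Grm4, the other group III receptor counted well, was 1.26, 1.36, 1.77, 1.42 and 1.69 in sham rats 1 to 5 and 2.09, 2.19, 2.09, 2.24 and 1.99 in stimulated rats 6 to 10. These ratios did not overlap between the groups, where Grm4 itself had a log2 fold change of -0.15. They use the same Grm7 counts as above, and how many other gene pairs separate the groups in this way was not counted. Grm7 over Grm2 was 0.381 to 0.516 in sham rats and exceeded this range in 4 of 5 stimulated rats, by most in rat 7 (2.86) and rat 9 (1.37), where Grm2 was low. Grm7 over Grm5 exceeded the sham range of 0.54 to 0.675 in 4 of 5 stimulated rats, and Grm7 over Grm3 exceeded its sham range of 0.652 to 0.953 in 2 of 5, rats 7 and 8.

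**Figure D3:**
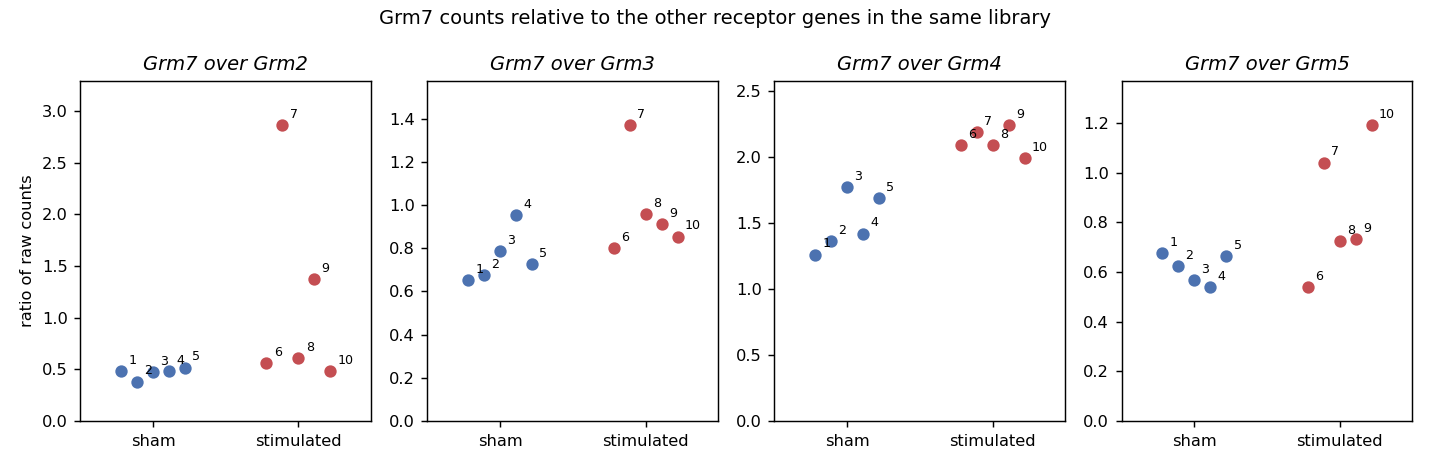
Ratio of raw Grm7 counts to those of 4 other receptor genes in the same library (vertical axes, from 0), which does not depend on library scaling. Each point is a rat with its number, and the groups are apart for Grm7 over Grm4, at 1.26 to 1.77 in sham and 1.99 to 2.24 in stimulated rats.

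As Grm7 was the receptor gene with the clearest difference, its promoter is printed to show what lies at its start site. The sequence is that of RefSeq in the GRCr8 assembly, chr4:145286476-145286775 on the plus strand, from 250 bases before to 50 bases after the annotated start. The counts were made on an older assembly, so this position was not used with them. Capitals mark matches to GGGCGG, the GC box bound by Sp1-type factors, on either strand.
Grm7 promoter: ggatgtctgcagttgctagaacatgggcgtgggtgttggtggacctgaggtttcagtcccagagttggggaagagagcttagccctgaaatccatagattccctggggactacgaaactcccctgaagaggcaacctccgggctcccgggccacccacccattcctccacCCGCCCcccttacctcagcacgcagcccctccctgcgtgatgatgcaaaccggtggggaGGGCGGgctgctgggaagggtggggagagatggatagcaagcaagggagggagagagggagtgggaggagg
It held 2 GC boxes, at bases 171 and 230, which 33.1% of the 33469 promoters of this length hold at least once. Its GC content was 62%, against a median of 51.7%, and it held 9 CG dinucleotides, against a median of 7. The letters of the AP-1 site TGANTCA (in 7.33% of promoters), of the cyclic AMP response element TGACGTCA (1.83%) and its part TGACG (21.2%), and of the EGR site GCGNGGGCG (4.98%) were not found in it on either strand. Promoters of 3 of the 6 receptor genes were matched. Those of Grm5 and Grm8 held 0 of these motifs and had a GC content of 37.3% and 47.3%.

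Grm2 (NM_001105711), a group II receptor that acts as an autoreceptor of glutamatergic terminals, had the largest spread between stimulated rats among the receptor genes counted over 100 times. Sham rats 1 to 5 carried 59.8, 83.0, 68.1, 69.7 and 60.7 CPM. Stimulated rats 6 to 10 carried 65.3, 15.5, 63.5, 31.8 and 84 CPM. Rats 6 and 8 lay in the sham range, rat 10 just above it, and rats 7 and 9 below it, at 22.9% and 47% of the mean taken over log2 CPM of the sham rats. The 333 counts of rat 7 carry a counting error of 5.48%, so this low value was beyond counting error.

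Mean Grm2 was 68.3 ± 9.34 CPM in the sham group and 52 ± 27.7 CPM in the stimulated group (SD, n = 5 each). The log2 fold change of -0.39 (SE 0.324, 95% interval -1.09 to 0.30, adjusted p = 0.715 in edgeR's quasi-likelihood test) compares with an SD of log2 CPM of 0.19 in the sham and 0.993 in the stimulated group. It was -0.17 without stimulated rat 7 and -0.63 without stimulated rat 10. The coefficient of variation was 13.7% in sham and 53.3% in stimulated rats. A wider spread in stimulated rats was common: the SD of log2 CPM was larger in stimulated than in sham rats for 4 of 6 receptor genes and for 69.5% of all features.

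The marker lists differed between these same rats. The immediate early gene score was high in rats 7, 9 and 10, and Grm2 was low in rats 7 and 9 but not in rat 10. C1ql2, a gene of dentate granule cells, was counted at 44.8 CPM in rat 7, at 207 CPM in rat 9 and at 127 to 142 CPM in the other stimulated rats, with 140 to 165 CPM in sham rats, and the dentate granule score was 5.56 in rat 7 and 6.66 in rat 9 beside 5.98 to 6.38 in sham rats. Rat 10, where Grm2 was not low, was also below the sham range for this score, at 5.64. The rats with low Grm2 lay on opposite sides of that range. The low score of rat 7 was not shared by every gene in it. Prox1 was at 27 CPM in rat 7 (22.3 to 35.9 CPM in sham rats) and Calb1 at 86.9 CPM (66.8 to 102 CPM). Nor was the low score of rat 10. There Calb1 was at 38.2 CPM, below its sham range, whereas Prox1 at 22.6 CPM and C1ql2 at 142 CPM were within theirs. The part of these differences in the Grm2 values was not tested.

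Grm3 (NM_001105712), the group II receptor that also responds to the peptide transmitter NAAG, differed little between the groups. Sham rats 1 to 5 carried 43.9, 46.7, 41.3, 35.3 and 43 CPM, and stimulated rats 6 to 10 carried 45.5, 32.4, 40.2, 47.5 and 47.4 CPM. Rat 7 was the lowest of all rats and rats 9 and 10 were the highest, so the stimulated values surrounded those of sham. Grm3 had a log2 fold change of 0.02 (SE 0.12, 95% interval -0.24 to 0.28, adjusted p = 0.97, edgeR's quasi-likelihood test), an interval that bounds the fold between 0.849 and 1.21. The annotated span of Grm3 overlaps that of Elapor2 in GRCr8, and Elapor2 had a mean of 44.6 ± 3.41 CPM in the sham group and 41.6 ± 7.6 CPM in the stimulated group (SD, n = 5 each). Counts of Grm3 were 0.876 to 1.18 times those of Elapor2 in each rat, and their log2 CPM had a Pearson correlation of 0.79 over the 10 rats. Whether reads were shared between them was not stated, which makes the level of Grm3, and its correlations given below, uncertain.

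Grm5 (NM_017012), the group I receptor, likewise had the same mean in the groups but a wide range. Sham rats 1 to 5 carried 42.4, 50.6, 57.2, 62.3 and 47.3 CPM, and stimulated rats 6 to 10 carried 67.7, 42.4, 53.3, 59.4 and 34.1 CPM. Rat 6 was the highest and rat 10 the lowest of all 10 rats. Between the groups the log2 fold change was -0.02 (SE 0.169, 95% interval -0.38 to 0.35, adjusted p = 0.983, edgeR's quasi-likelihood test).

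The same rats stood at the ends of the CA1 pyramidal score, with 5.85 in rat 6 and 3.97 in rat 10, beside 4.84 to 5.43 in sham rats. Rat 7, at 4.66, was also below the sham range. Fibcd1, a marker of CA1 pyramidal cells, was counted at 171 CPM in rat 6, 28.4 CPM in rat 10 and 93.6 to 110 CPM in the other 3 stimulated rats, beside 85 to 164 CPM in sham rats. Wfs1, of the same list, was at 43.9 CPM in rat 6 and 21.4 CPM in rat 10, beside 20.9 to 42.3 CPM in sham rats. Across the 10 rats, which share library scaling and dissection, log2 CPM of Grm5 had a Pearson correlation of 0.88 with the CA1 score. It was 0.68 without rats 7 and 10, and was not computed without rat 6. The correlation was 0.91 with the score of the Gq output genes and 0.92 with that of the Gi/o output genes. Among the other neuronal lists it was 0.72 with the dentate granule, 0.65 with the neuronal, 0.12 with the CA3 and -0.24 with the interneuron score. Rat 10 was also below the sham range for the dentate granule (5.64), CA3 (6.15) and neuronal (8.76) scores. The amount of CA1 in each piece was not measured, and its part in the level of Grm5 was not tested.

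Grm4 (NM_022666), a group III receptor, had a narrow range. Sham rats 1 to 5 carried 22.6, 23.3, 18.3, 23.7 and 18.5 CPM, and stimulated rats 6 to 10 carried 17.4, 20.2, 18.5, 19.4 and 20.4 CPM. Of the sham rats, 3 were above every stimulated rat, and rats 3 and 5 were among the stimulated values. For Grm4 the log2 fold change was -0.15 (SE 0.111, 95% interval -0.39 to 0.09, adjusted p = 0.677, edgeR's quasi-likelihood test). It was negative in all 21 alternatives, from -0.21 to -0.11.

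Grm8 (NM_022202), a group III receptor of high affinity for glutamate, was counted at most 48 times in a library, and its values varied widely between rats of a group. The raw counts were 16, 0, 48, 48 and 25 in sham rats 1 to 5 and 28, 17, 14, 12 and 32 in stimulated rats 6 to 10, with a counting error of 14.4 to 28.9% for each count above 0. The coefficient of variation of its CPM between rats was 76.8% in the sham and 39.9% in the stimulated group, where counting error alone gives 19.1% and 22%. Sham rat 2 had no counts, where 3 counts, the upper limit that a count of 0 allows, correspond to 0.221 CPM of its aligned total. The log2 fold change was -0.36 (SE 0.575, 95% interval -1.60 to 0.87, adjusted p = 0.871, edgeR's quasi-likelihood test), and leaving out sham rat 3 moved it to 0.02.

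**Figure D4:**
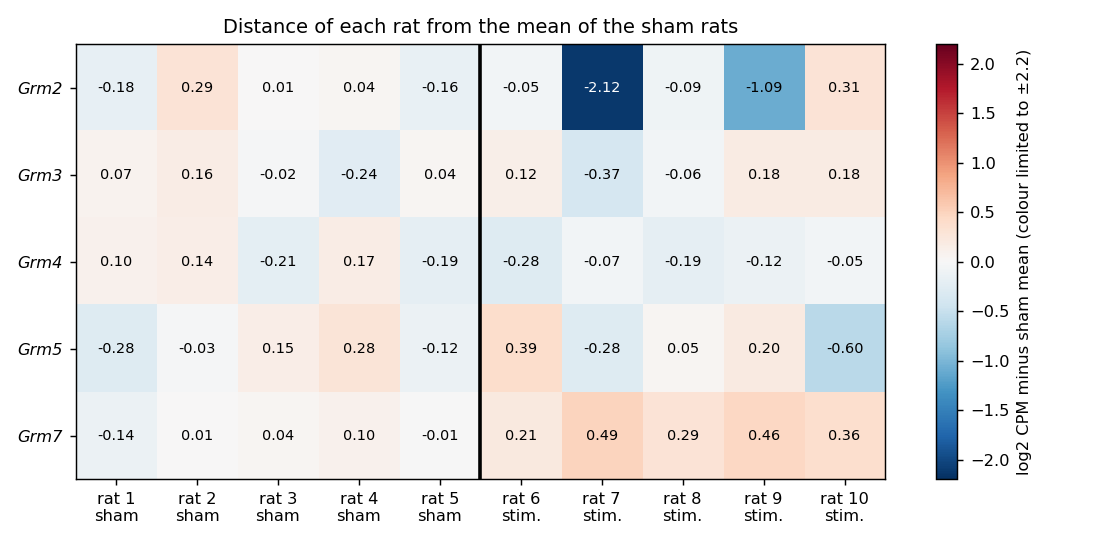
Log2 CPM of each rat (columns) minus the mean of the 5 sham rats, for the 5 receptor genes (rows) counted over 100 times in every library, with the value printed in each cell. Grm7 is above 0 in all 5 stimulated rats, from 0.21 to 0.49, and Grm2 is low in rats 7 and 9, at -2.12 and -1.09.

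The receptor genes did not move as a block across rats. Of the 15 pairs, Grm2 and Grm7 had the lowest Pearson correlation of log2 CPM over the 10 rats, -0.61, which was 0.48 within the sham rats and -0.78 within the stimulated rats. Grm2 and Grm3 had the highest, 0.54, with 0.15 within sham and 0.73 within stimulated rats. These correlations describe 10 libraries and were not tested.

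The features with the pattern most like that of each receptor gene over the 10 rats were sought among 9199 genes of at least 5 CPM. Their high correlations, also within a group, follow in part from this choice on the same rats and were not tested. For Grm7 these were the complement gene C2 (Pearson r = 0.951), Golm2 (0.942) and Lamtor3, a subunit of the lysosomal Ragulator complex (0.932). Their correlations were 0.64, 0.93 and 0.79 within the sham rats alone and 0.87, 0.77 and 0.87 within the stimulated rats alone. For Grm2 they were Palm (paralemmin, a protein of neuronal membranes, 0.98), Poll (a DNA repair polymerase, 0.961) and Pwwp2b (0.955). These followed the low values of rats 7 and 9: Palm was counted at 186 and 226 CPM there and at 285 to 325 CPM in the other 8 rats. Without rat 7 the 3 correlations were 0.94, 0.93 and 0.87. They were 0.71, 0.46 and 0.56 within the sham rats alone and 0.99, 0.98 and 0.99 within the stimulated rats alone.

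For Grm3 the nearest genes were Ift27, of intraflagellar transport (0.94), Olig1, a transcription factor of the oligodendrocyte lineage (0.899), and Plcd4 (0.893). Grm3 also had a correlation of 0.86 with the oligodendrocyte score, which was 0.71 without rats 7 and 10. For Grm5 they were Cpd (carboxypeptidase D, 0.96), Gramd1b (a sterol carrier, 0.957) and Mettl6 (0.954). Their correlations were 0.96, 0.97 and 0.99 within the sham rats alone and 0.99, 0.97 and 0.95 within the stimulated rats alone. For Grm4 the correlations were lower, at 0.886 for Rnf121, 0.847 for Gtpbp8 and 0.826 for Arl6ip4. Those of Grm8 were Eogt (0.977), Fcho2 (0.942) and Lrrcc1 (0.926), all lowest in sham rat 2, and were 0.89, 0.75 and 0.65 without it.

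Around the receptors, binding partners were examined first. Pick1, which binds the tail of Grm7 and other synaptic receptors, was counted at 35.7, 34.7, 36.7, 34.9 and 36.2 CPM in sham rats 1 to 5 and at 32, 29.4, 32.6, 28.6 and 29.2 CPM in stimulated rats 6 to 10. All 5 stimulated rats were below all sham rats, opposite in direction to Grm7 (log2 fold change -0.23, SE 0.0831, unadjusted p = 0.0148, adjusted p = 0.416, edgeR's quasi-likelihood test). Such a lack of overlap, in either direction, was seen for 1.29% of all features. Tamalin, an adaptor of group I receptors, was counted at 76.3, 128 and 36.1 CPM in rats 7, 9 and 10 and at 16.6 and 18.6 CPM in rats 6 and 8. Its sham mean was 18.9 ± 0.716 CPM (SD, n = 5), and the log2 fold change 1.55 (SE 0.454, adjusted p = 0.39 in edgeR's quasi-likelihood test). These rats are those with high immediate early scores. Grip1 and Elfn1 had log2 fold changes of -0.03 and -0.01. Of the 4 partners tested, 1 was higher and 1 lower at an unadjusted p-value under 0.05, where 6.7% of all features were higher and 3.16% lower at this threshold.

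Among 9 scaffold genes of group I receptors, 2 were higher at the unadjusted threshold and 0 lower, with a list median of 0.02. The shares of all features at this threshold were 6.7% higher and 3.16% lower. Homer1, whose proteins tether Grm5 at the postsynaptic density, was counted at 121 and 109 CPM in rats 7 and 9 and at 43.6 to 58.2 CPM in the other stimulated rats, beside 40.6 to 51.2 CPM in sham rats. The count does not separate long and short Homer1 forms. Dlg4, the scaffold PSD-95, differed by 0.18 on the log2 scale (SE 0.0763, adjusted p = 0.472, edgeR's quasi-likelihood test).

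Of 8 genes of the Gq output, 0 passed the unadjusted threshold in either direction, beside 9.86% of all features. The list median was -0.03, and the IP3 receptor Itpr1 had a log2 fold change of -0.16 (SE 0.173). Of 12 genes of the Gi/o output, 0 were higher and 1 was lower, beside 6.7% and 3.16% of all features (list median -0.01). This gene was Gnai1, a G protein subunit through which group II and III receptors act, with means of 108 ± 6.52 CPM (sham) and 88.9 ± 14.5 CPM (stimulated; SD, n = 5 each; log2 fold change -0.28, SE 0.107, adjusted p = 0.427, edgeR's quasi-likelihood test). Stimulated rat 6, at 112 CPM, was within the sham range. Adcy1, a calmodulin-stimulated adenylyl cyclase, was counted at 24.2 and 39.8 CPM in rats 7 and 10, at 125, 92 and 130 CPM in rats 6, 8 and 9, and at 102 to 152 CPM in sham rats (log2 fold change -0.66, SE 0.357, adjusted p = 0.559).

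The 10 genes that supply or clear the receptor ligands glutamate and NAAG had a median of 0.15. At the unadjusted threshold, where 6.7% of all features were higher and 3.16% lower, 3 were higher and 0 lower. These were the astrocytic transporters Slc1a2 and Slc1a3, with log2 fold changes of 0.36 (SE 0.12, adjusted p = 0.409, edgeR's quasi-likelihood test) and 0.22 (SE 0.0848, adjusted p = 0.432), and glutamine synthetase, Glul, at 0.28 (SE 0.1, adjusted p = 0.418). The astrocyte list, which shares both transporters, had 4 of 9 genes higher and 0 lower, and its score was 8.05 to 8.29 in sham and 8.07 to 8.41 in stimulated rats. The part of astrocyte number or state in these values was not tested.

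**Figure D5:**
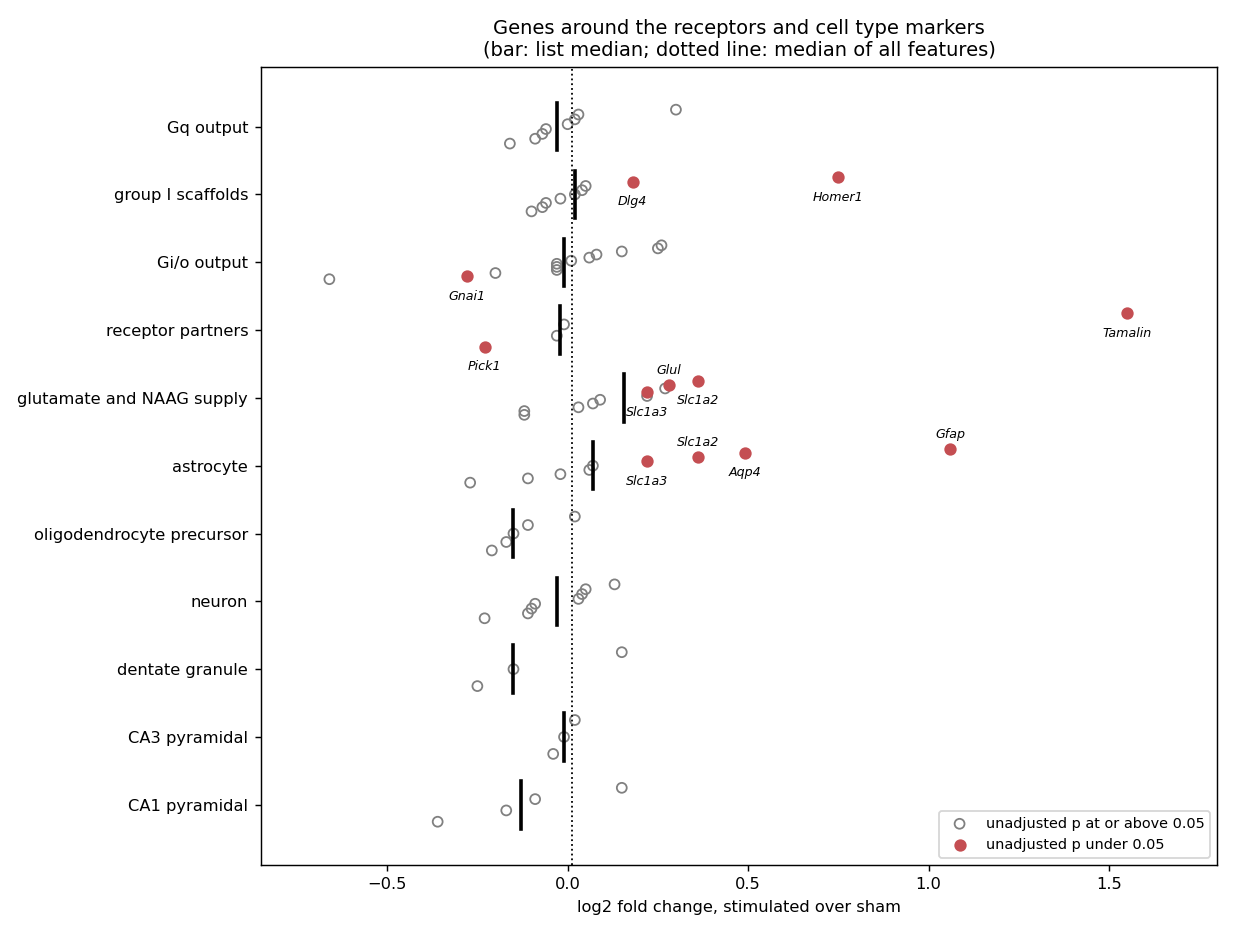
Log2 fold change of stimulated over sham rats (horizontal axis) for the genes of 5 lists around the receptors and 6 lists of cell type markers (rows). Each circle is a gene, filled and named where its unadjusted p-value was under 0.05, the bars are list medians, and 0 of these genes had an adjusted p-value under 0.05. Slc1a2 and Slc1a3 stand in 2 lists.

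Grm6, known from retinal bipolar cells, averaged 3.83 ± 0.917 CPM in the sham group and 3.29 ± 1.75 CPM in the stimulated group (SD, n = 5 each).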

How the data were processed

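Messenger RNA was sequenced from 10 rats, 5 sham and 5 stimulated, in single reads of 36 cycles, and per the labels groups follow the treatment field. The authors aligned reads to RN4 with BWA and deposited raw counts per RefSeq transcript. The study's methods name an Ensembl annotation, and neither strand use nor the treatment of shared reads was stated. Replicates are separate rats, and no batch was given. The row of unaligned reads (32.01 to 45.14% of reads) was set aside.

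Rows with a summed count under the 30th percentile (46) were left out, and 22447 of 32041 were tested with edgeR 4.0.16 (quasi-likelihood, default settings, trimmed mean factors, no covariate, Benjamini-Hochberg over all tested rows, R 4.3.3). The script was tested on simulated data. SE is the fold change divided by the root of F, with intervals from the t distribution. Log2 CPM used a prior count of 2. Symbols and promoters came from RefSeq (GRCr8), for names and sequence alone. Alternatives were RLE, upper quartile and no scaling factors, no filter or at least 10 counts in 4 samples, likelihood ratio, exact, DESeq2 1.42.0 and limma-voom 3.58.1 tests, adjusted deviances, rows summed by symbol, and each rat left out. Named were the receptor genes, up to 4 genes of lowest p-value in each of 18 lists, Fos, and the 3 genes most correlated with each receptor gene. Grm6 and Elapor2 were added after their values were seen. A gene of these lists, and the counts of its list, are not reported here. The members and lists were chosen with earlier results of these data known. Intervals of counts cover counting error only.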

Additional observations from a re-analysis of the deposited data

Results flagged for a closer look

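A rat was singled out where its distance to the next rat took up more than 0.71 of the range of its group of 5, Dixon's 95% limit. Examined were the 6 receptor genes and 18 list scores in each group, 48 sets of values in all. Chance alone exceeds the limit in about 1 in 20 sets, or 2.4 here, and 2 did. None was a receptor gene. The oligodendrocyte score of sham rat 4 was 7.86, with 8.25 to 8.38 in the other sham rats (gap 0.75 of the range), and Grm3 was lowest of the sham rats in this rat, at 35.3 CPM. The oligodendrocyte precursor score of stimulated rat 7 was 4.80, with 5.26 to 5.44 in the other stimulated rats (gap 0.719), and Grm3 was lowest of all rats here, at 32.4 CPM. Over the 10 rats, the Pearson correlation of Grm3 was 0.86 with the oligodendrocyte score and 0.74 with the precursor score. Without rat 7 these were 0.70 and 0.30. Whether these scores bear on the level of Grm3 was not tested.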

How the results depend on the processing

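The number of receptor genes with an adjusted p-value under 0.05 was 0, and with an unadjusted p-value under 0.05 it was 1, in all 21 alternatives. Features past the adjusted threshold numbered 119 with the likelihood ratio test, 90 with edgeR's exact test, 33 with DESeq2 and 0 in the other alternatives; the cause was not tested. Features with an unadjusted p-value under 0.05 numbered 1657 to 3145 when 1 rat was left out. Of the receptor genes, 2 were higher in stimulated rats, against 1 with upper quartile factors and 1 to 4 when 1 rat was left out (4 without sham rat 3, 1 without stimulated rat 6 or rat 9). The direction changed for 3 genes: Grm3 was at -0.0038 with upper quartile factors and at -0.04 to 0.09 when 1 rat was left out, Grm5 at 0.0038 with library size alone and at -0.15 to 0.10, and Grm8 at 0.16 with limma-voom and at -0.66 to 0.02. Grm2, Grm4 and Grm7 kept their direction in all 21 alternatives. With RLE factors, the 18 list scores moved by less than the spread between rats, and 17 of the 18 genes named for likeness were named again. No paired analysis was possible because the labels give the groups no shared replicate numbers. Depth limits Grm8 most among the receptor genes, with a counting error of 14.4 to 28.9% for each count above 0.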

Other observations

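The other lists gave the following values at the unadjusted threshold in edgeR's quasi-likelihood test, with 0 genes past the adjusted one in any list. Of all features, 6.7% were higher and 3.16% lower at the unadjusted threshold. All 10 immediate early genes had positive log2 fold changes, 9 of them past the unadjusted threshold, with a list median of 1.79. Fos was at 106, 50.3 and 61.7 CPM in stimulated rats 7, 9 and 10, at 5.61 and 5.24 CPM in rats 6 and 8, and at 3.26 to 5.32 CPM in sham rats. Endothelial markers were higher for 5 of 9 genes (median 0.38), led by the adhesion molecule Pecam1, with 13.5 ± 2.42 CPM in the sham group and 23.7 ± 6.64 CPM in the stimulated group (SD, n = 5 each). Microglial markers were higher for 2 of 10 genes, the complement genes C1qa and C1qb (median 0.18). Of 7 interneuron markers 1 was higher, the peptide gene Npy, at 192, 80.2 and 107 CPM in rats 7, 9 and 10, at 8.6 and 5.36 CPM in rats 6 and 8, and at 5.53 to 11.2 CPM in sham rats (median of the list 0.06). No gene passed the unadjusted threshold among 8 neuronal markers (median -0.03), 8 oligodendrocyte (-0.14), 5 precursor (-0.15), 3 dentate granule (-0.15), 3 CA3 (-0.01), 4 CA1 (-0.13) and 4 choroid plexus markers (0.69). The choroid plexus genes were rare, with Ttr at 0.744 to 23.1 CPM across rats.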
